A study of Mus musculus with 9 samples.

Results

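The genes described here belong to the leukotriene, platelet-activating factor (PAF) and formyl peptide pathway, by which leukocytes make and sense lipid and peptide chemoattractants. They were chosen by symbol: the receptors Ltb4r1, Ptafr, Fpr1 and Fpr2 and the synthesis genes Alox5 and Alox5ap. Of these 6 genes, 4 had a transcript cluster with a single gene name among the 19938 genes measured. Ltb4r1, Ptafr, Alox5 and Alox5ap had 1 cluster each, while Fpr1 and Fpr2 were not analysed here because no named cluster carried their symbols.

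Monocytes were purified by magnetic separation from the blood of tumor-free Ccr2-/-, Ccl2-/- and wild type mice, all of the Balb/c strain and 14 to 18 weeks of age, and their RNA was hybridized to Affymetrix Mouse Gene 1.0 ST arrays. Ccr2-/- mice lack the chemokine receptor CCR2, Ccl2-/- mice lack its ligand CCL2, and both carry the deletion in the whole animal. Each genotype was represented by 3 of the 9 arrays, and every array carried RNA pooled from 5 mice, so that differences between single mice could not be seen. Cells positive for CCR3, Ly-6G, MHC class II, B220, CD8 or CD4 were depleted, and those positive for CD11b were then kept. The comparison asked how loss of the receptor, or of its ligand, was accompanied by a change in the expression of these genes in circulating monocytes.

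5-lipoxygenase, the product of Alox5, works with the membrane protein FLAP, the product of Alox5ap, to turn arachidonic acid into the precursor of all leukotrienes. Leukotriene B4 is then sensed by the high-affinity receptor encoded by Ltb4r1, PAF by the receptor encoded by Ptafr, and formylated peptides from bacteria and mitochondria by Fpr1 and Fpr2. These receptors couple to inhibitory G proteins, and monocytes and neutrophils use them to move towards sites of infection or injury.

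The promoters of the genes are shown because Ltb4r1 and Ptafr varied closely together across the arrays and Alox5 less closely with them. The 250 bases before the annotated start were taken from RefSeq (build GRCm38.p6) and are written 5′ to 3′ on the strand of the gene. Promoters were found for 5 of the 6 genes and 3 of the 4 measured ones. Alox5ap, which also varied closely with Ltb4r1 and Ptafr, had no entry. Capitals mark matches on either strand to GAGGAA, the core bound by the myeloid factor PU.1, and to GGGCGG, the GC box bound by Sp1.
Ltb4r1 (chr14:55765712-55765961, plus strand): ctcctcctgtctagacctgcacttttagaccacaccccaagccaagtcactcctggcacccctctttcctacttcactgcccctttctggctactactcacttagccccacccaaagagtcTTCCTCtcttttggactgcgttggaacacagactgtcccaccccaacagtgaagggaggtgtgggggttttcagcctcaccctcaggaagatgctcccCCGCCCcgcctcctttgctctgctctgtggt
Ptafr (chr4:132563817-132564066, plus strand): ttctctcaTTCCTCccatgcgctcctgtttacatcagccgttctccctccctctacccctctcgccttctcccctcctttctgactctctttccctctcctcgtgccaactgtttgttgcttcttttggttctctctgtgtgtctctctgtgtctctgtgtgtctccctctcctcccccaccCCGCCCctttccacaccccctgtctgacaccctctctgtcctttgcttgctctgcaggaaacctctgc
Alox5 (chr6:116461179-116461428, minus strand): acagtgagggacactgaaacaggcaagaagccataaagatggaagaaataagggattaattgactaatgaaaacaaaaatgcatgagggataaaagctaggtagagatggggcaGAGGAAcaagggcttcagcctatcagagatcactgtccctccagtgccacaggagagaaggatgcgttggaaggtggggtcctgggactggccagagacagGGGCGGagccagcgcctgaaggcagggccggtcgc
Each of the 3 windows held 1 match to GAGGAA and 1 match to GGGCGG. The GAGGAA match began 129 bases upstream of the start in Ltb4r1, 242 bases upstream in Ptafr and 136 bases upstream in Alox5, and the GGGCGG match began 31, 68 and 35 bases upstream in the same genes, counted to the capital letter farthest from the start. None of the 3 windows held TTGCNNAA, a site bound by C/EBP factors, and no match overlapped another. Among 32851 promoter windows of the same length, 23.2% held GAGGAA, 32.7% held GGGCGG and 9.56% held TTGCNNAA. The promoter of Alox5, whose level was not called in any comparison of the main fit, held the same 2 motifs as those of Ltb4r1 and Ptafr. The part of these motifs in the levels of the genes was not tested.

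Median intensity lay between 324 and 355 in 8 arrays and was 431 in Ccl2-/- replicate 1. Ccr2 itself was at 9.41 to 9.47 in Ccr2-/- arrays, against 12.61 to 12.93 in Ccl2-/- arrays and 12.99 to 13.26 in wild type arrays, on the log2 scale of the deposited intensities that is used throughout. Ccl2 was at 9.23 to 9.87 in the arrays labelled Ccl2-/- and 8.82 to 9.22 in wild type arrays, so its level did not check that label. The sources used here do not say where its probes lie relative to the deletion, and Ccl2-/- below stands for the arrays labelled so. Centring the arrays on their medians lowered the differences of all genes by 0.11 on the log2 scale in Ccl2-/- against wild type, raised them by 0.11 in Ccr2-/- against Ccl2-/-, and moved those of Ccr2-/- against wild type by 0.003.

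Both receptors were at a much lower level in the purified Ccr2-/- cells than in the purified wild type cells. Ltb4r1, the leukotriene B4 receptor, was at 8.22, 8.67 and 8.71 in Ccr2-/- arrays, at 9.40, 9.31 and 9.53 in Ccl2-/- arrays and at 9.98, 9.95 and 9.83 in wild type arrays. The genotypes did not overlap, with every Ccr2-/- array below every Ccl2-/- array and every Ccl2-/- array below every wild type array. In linear units the mean intensity was 374 ± 66.7 in Ccr2-/-, 682 ± 51.4 in Ccl2-/- and 969 ± 52.7 in wild type (SD, n = 3 each). Ltb4r1 fell by 1.39 on the log2 scale in Ccr2-/- relative to wild type (95% confidence interval -1.69 to -1.08), to 0.382 times the wild type level (limma, adjusted p = 0.000669). A fall in RNA from a purified population cannot be divided between fewer cells of the type that expresses the gene and less RNA per cell, because in bulk samples these cannot be told apart.

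Ptafr, the PAF receptor, had the same order of genotypes. Its level was 10.28, 10.55 and 10.67 in Ccr2-/- arrays, 11.33, 11.30 and 11.71 in Ccl2-/- arrays and 11.88, 12.09 and 11.81 in wild type arrays. Again no array of one genotype reached the range of another, although the highest Ccl2-/- array lay just below the lowest wild type array. The mean intensity was 1456 ± 196 in Ccr2-/-, 2816 ± 471 in Ccl2-/- and 3903 ± 392 in wild type (SD, n = 3 each). Relative to wild type, Ptafr fell by 1.43 on the log2 scale in Ccr2-/- (95% confidence interval -1.76 to -1.10), to 0.372 times the wild type level (limma, adjusted p = 0.000763).

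**Figure D1:**
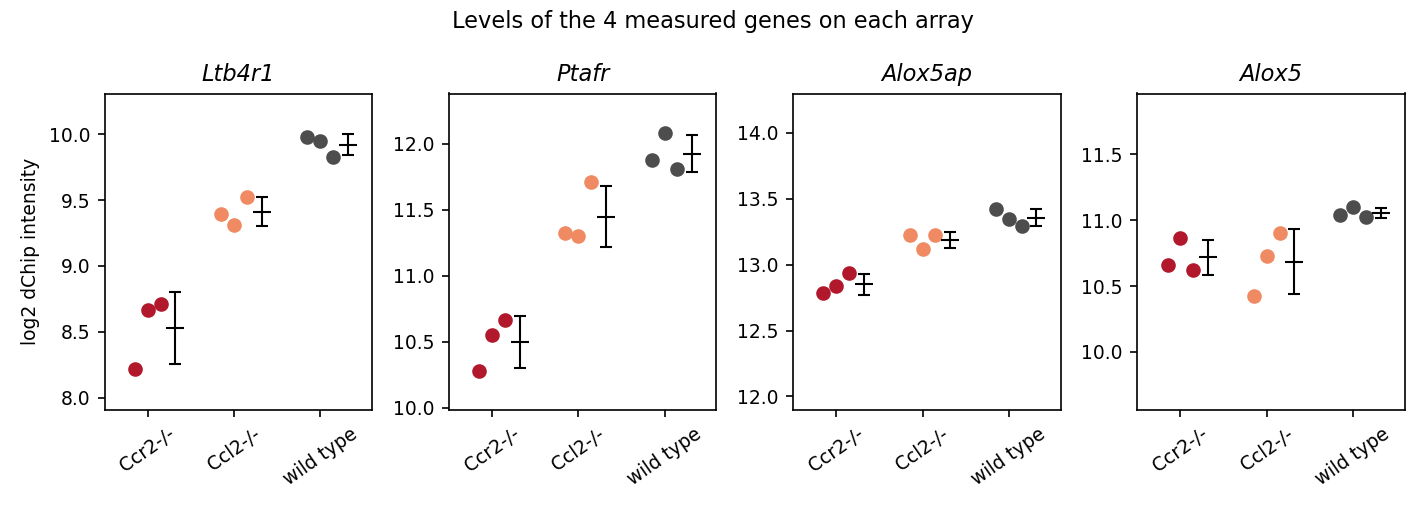
Log2 dChip intensity (vertical axis) of Ltb4r1, Ptafr, Alox5ap and Alox5 on each of the 9 arrays, 1 panel per gene, with Ccr2-/-, Ccl2-/- and wild type from left to right. Points are arrays and bars are the mean ± SD of the 3 arrays; each panel spans the same number of log2 units, but the levels of different genes cannot be compared because they come from different probes. Ltb4r1 and Ptafr separate all 3 genotypes, whereas the Ccr2-/- and Ccl2-/- arrays of Alox5 overlap.

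The synthesis genes had smaller log2 differences than the receptors and differed from each other in the order of the genotypes, neither of which was tested. Alox5ap, which encodes FLAP, was at 12.78, 12.84 and 12.94 in Ccr2-/- arrays, at 13.23, 13.12 and 13.22 in Ccl2-/- arrays and at 13.42, 13.35 and 13.29 in wild type arrays. As with the receptors, the 3 genotypes did not overlap, but the steps between them were smaller. Mean intensity was 7400 ± 411 in Ccr2-/-, 9347 ± 390 in Ccl2-/- and 10480 ± 469 in wild type (SD, n = 3 each). Alox5ap fell by 0.50 on the log2 scale in Ccr2-/- relative to wild type (95% confidence interval -0.67 to -0.34), to 0.706 times the wild type level (limma, adjusted p = 0.00232).

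Alox5, the gene of 5-lipoxygenase itself, was the only gene of the 4 not called in Ccr2-/- relative to wild type. Its difference was not tested against that of Alox5ap. The level of Alox5 was 10.66, 10.87 and 10.62 in Ccr2-/- arrays, 10.42, 10.73 and 10.90 in Ccl2-/- arrays and 11.04, 11.10 and 11.02 in wild type arrays. The wild type arrays lay close together and above all 6 knockout arrays, while the knockouts overlapped and Ccl2-/- spread over the widest range. Mean intensity was 1688 ± 156 in Ccr2-/-, 1662 ± 274 in Ccl2-/- and 2125 ± 58.3 in wild type (SD, n = 3 each). The difference between Ccr2-/- and wild type was -0.34 on the log2 scale (95% confidence interval -0.62 to -0.05) and was not called (limma, adjusted p = 0.131). It passed the test when Ccl2-/- replicate 1, the array with the highest median, was left out of the shared estimate of the spread (adjusted p = 0.0250), and when only the 6 arrays compared were fitted (adjusted p = 0.0289).

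In Ccr2-/- relative to wild type, 3 of the 4 measured genes were thus called lower and none higher, beside 13.3% of all genes called in either direction and 8.38% called lower. The median difference of the 4 genes was -0.94 on the log2 scale, against 0.01 over all genes tested. All 4 had every Ccr2-/- array below every wild type array, as did 18.1% of all genes. All 4 were also past the size limits of the study's methods, a ratio of means over 1.2 with a difference over 100, in the lower direction, compared with 9.21% of all genes. The calls of Ltb4r1, Ptafr and Alox5ap were kept under all 17 alternative settings, with adjusted p between 8.11e-05 and 0.00559 for Ltb4r1, between 6.66e-05 and 0.00594 for Ptafr and between 8.91e-05 and 0.0150 for Alox5ap. Over all genes the calls leaned lower, 978 higher and 1670 lower, and this leaning was weaker with quantile normalization, which gave 1317 higher and 1379 lower.

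In the purified Ccl2-/- cells the same 4 genes were at lower levels than in wild type, but none passed the test. In Ccl2-/- relative to wild type, Ltb4r1 was at 0.704 times the wild type level (-0.51 on the log2 scale, 95% confidence interval -0.81 to -0.20, limma adjusted p = 0.167). Ptafr was at 0.718 times (-0.48, interval -0.81 to -0.15, adjusted p = 0.217) and Alox5 at 0.775 times (-0.37, interval -0.65 to -0.09, adjusted p = 0.264). Alox5ap differed least, at 0.892 times (-0.16, interval -0.33 to -0.002, adjusted p = 0.376). No gene of the 4 was called, beside 0.16% of all genes called in either direction and 0.0853% called lower, and this count stayed at 0 under all 17 alternatives. All 4 had an unadjusted p under 0.05, as did 13.1% of all genes, and in all 4 every Ccl2-/- array was below every wild type array, as in 9.31% of all genes. Ltb4r1, Ptafr and Alox5 were past the size limits in the lower direction, compared with 3.76% of all genes. Both knockouts were set against the same 3 wild type arrays, so the shared direction of their differences is not independent.

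The knockouts were also compared directly. Ltb4r1 fell by 0.88 on the log2 scale in Ccr2-/- relative to Ccl2-/- (95% confidence interval -1.18 to -0.58, limma adjusted p = 0.0171), to 0.543 times the Ccl2-/- level. Ptafr fell by 0.95 (interval -1.28 to -0.62, adjusted p = 0.0178), to 0.518 times, and Alox5ap fell by 0.34 (interval -0.50 to -0.17, adjusted p = 0.0424), to 0.791 times. Alox5 showed no difference that passed the test, with 0.03 on the log2 scale (interval -0.25 to 0.31, adjusted p = 0.908). The 3 genes called lower stood beside 3.6% of all genes called in either direction and 2.87% called lower. In the same 3 genes every Ccr2-/- array was below every Ccl2-/- array, as in 16% of all genes, and all 3 were past the size limits in the lower direction, compared with 9.16% of all genes.

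These direct calls were less stable than those against wild type. The call of Ltb4r1 was lost without Ccr2-/- replicate 1 (adjusted p = 0.0562), Ccr2-/- replicate 2 (adjusted p = 0.0762) or Ccl2-/- replicate 3 (adjusted p = 0.0566), and that of Ptafr without Ccr2-/- replicate 1 (adjusted p = 0.0810) or Ccr2-/- replicate 2 (adjusted p = 0.0795). Both were lost when only the 6 arrays compared were fitted (adjusted p = 0.0882 each). The call of Alox5ap was lost in 13 of the 17 alternatives, among them the removal of any single array, with adjusted p from 0.0517 to 0.348 where it was lost. The size of the differences changed less, and that of Ltb4r1 was -0.72 on the log2 scale without Ccr2-/- replicate 1. Over all genes the split depended on the scale: 146 genes were called higher and 572 lower, but 187 higher and 74 lower once arrays were centred on their medians, where Ltb4r1 (-0.77, adjusted p = 0.0426) and Ptafr (-0.84, adjusted p = 0.0473) were still called.

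**Figure D2:**
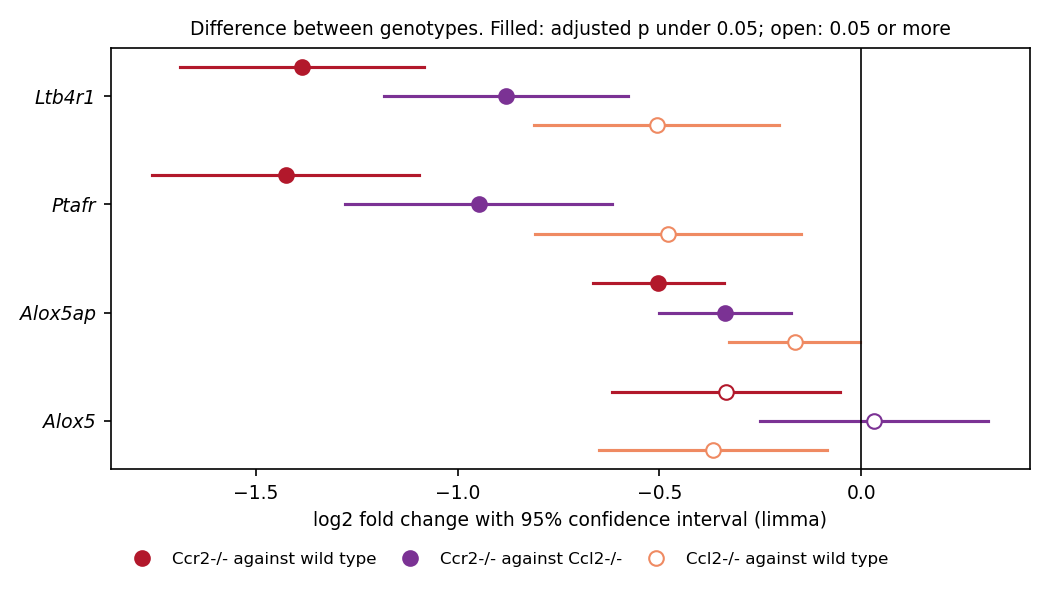
Log2 fold change (horizontal axis) of the 4 measured genes with its 95% confidence interval from limma, for Ccr2-/- against wild type, Ccr2-/- against Ccl2-/- and Ccl2-/- against wild type. Filled points have an adjusted p under 0.05 and open points do not: Ltb4r1, Ptafr and Alox5ap are filled in both comparisons of Ccr2-/-, and no point of Ccl2-/- against wild type is filled.

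Across the 9 arrays Ltb4r1, Ptafr and Alox5ap varied closely together, and Alox5 less so. Pearson's r of the log2 levels was 0.987 between Ltb4r1 and Ptafr, 0.984 between Ltb4r1 and Alox5ap and 0.972 between Ptafr and Alox5ap. Alox5 was correlated more weakly with each of them, at 0.596 with Ltb4r1, 0.616 with Ptafr and 0.501 with Alox5ap. Once the mean of each genotype was taken out, r was 0.807 between Ltb4r1 and Ptafr, 0.762 between Ltb4r1 and Alox5ap and 0.590 between Ptafr and Alox5ap. For Alox5 these values were 0.521 with Ptafr, 0.284 with Ltb4r1 and -0.17 with Alox5ap, so that within genotypes Ptafr was about as close to Alox5 as to Alox5ap. These values describe 9 arrays in 3 genotypes, and the genes share every array.

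Among 18295 genes, those whose levels over the 9 arrays were most like each gene were also named. For Ltb4r1 they were led by Ctsh and Grn, a lysosomal protease and the progranulin precursor (r = 0.997 and 0.996), followed by Ifi30, Tmem50b and Pdxk. For Ptafr they were Snx9 (r = 0.997), Nlrp3, the sensor of the inflammasome (r = 0.995), Ninj1, Tmem86a and Plxnd1. For Alox5ap they were Lilra6 (r = 0.998), Acvrl1 (r = 0.995), the haptoglobin gene Hp (r = 0.995), Ifi30 and Aph1c. Alox5 had a different and looser set, in which Rpl10l (r = 0.969) and the MHC class II gene H2-Aa (r = 0.955) came before Bet1, Keap1 and Nadk2. Of 7 dendritic cell markers, 2 were called lower in Ccr2-/- relative to wild type, beside 8.38% of all genes, and 5 were not called. Among those 5, Zbtb46, Xcr1 and Siglech had a higher mean log2 level in Ccr2-/- than in wild type, and Clec9a and Ccr9 a lower one. Flt3 and Cd209a, the 2 called, also had knockouts at similar levels. Flt3, a growth factor receptor of dendritic cells and their precursors, was at 8.22, 8.40 and 8.15 in Ccr2-/- arrays, 8.20, 8.29 and 8.36 in Ccl2-/- arrays and 8.92, 9.08 and 9.03 in wild type arrays. It fell by 0.76 in Ccr2-/- (limma, adjusted p = 0.00102, called in all 17 alternatives) and by 0.73 in Ccl2-/- (adjusted p = 0.0254), but the Ccl2-/- call was lost in 7 alternatives, among them the removal of Ccr2-/- replicate 1, Ccl2-/- replicate 2 or any wild type array (adjusted p up to 0.164). The study reported lower Flt3 in Ccr2-/- but not in Ccl2-/- monocytes, whereas here every array of both knockouts lay below every wild type array. Cd209a fell by 1.06 in Ccr2-/- (adjusted p = 0.0123), a call lost without Ccr2-/- replicate 1 or wild type replicate 2 or 3 (adjusted p up to 0.0579), and was at -0.87 in Ccl2-/- (adjusted p = 0.144). The summed intensity of the dendritic list was 2909 to 3415 in Ccr2-/-, 3236 to 3592 in Ccl2-/- and 3951 to 5254 in wild type. Cd209a alone had a mean intensity of 1252 in Ccr2-/-, 1458 in Ccl2-/- and 2654 in wild type, so the sum mainly followed this gene. The median difference of the list was -0.04 in Ccr2-/- and 0.04 in Ccl2-/-. Of its 7 genes, 5 had a mean level below the median of all genes, so these medians rest mainly on genes of lower signal. The part of dendritic cells in the levels of Alox5 was not tested.

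Other genes of these pathways were taken from 11 lists that held 95 genes, of which 89 were measured. In Ccr2-/- relative to wild type, 5 of the 89 rose and 22 fell, so that 30.3% were called, beside 13.3% of all genes. Their median difference was -0.05 on the log2 scale, against 0.01 over all genes, and quantile normalization gave 9 higher and 19 lower. No gene of the lists was called in Ccl2-/- relative to wild type, and 1 rose and 6 fell in Ccr2-/- relative to Ccl2-/- (7.87%, beside 3.6% of all genes). That leaning depended on the scale, with 2 higher and 4 lower after quantile normalization and 2 higher and 2 lower after centring on array medians. Those 7 were Alox8, which rose, and Cysltr1, Pla2g7, Tbxas1, C5ar1, Pik3r6 and Ncf1, and none of them was called without Ccr2-/- replicate 1 or without Ccr2-/- replicate 2. Of the 27 calls in Ccr2-/- relative to wild type, 14 were kept under all 17 alternatives, and no gene among the 27 changed direction in any of them. The counts of single lists given below stand beside the same background, 13.3% of all genes called and 8.38% called lower.

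The clearest pattern among the other leukotriene receptors was an opposite change of the receptors for cysteinyl leukotrienes, which mediate contraction and leak of vessels and airways. Cysltr1 was at 8.84, 8.84 and 8.93 in Ccr2-/- arrays, at 9.54, 9.74 and 10.16 in Ccl2-/- arrays and at 10.69, 10.44 and 10.20 in wild type arrays. Cysltr2 ran the other way, at 10.10, 10.02 and 9.94 in Ccr2-/- arrays, 9.65, 9.55 and 9.05 in Ccl2-/- arrays and 8.64, 8.94 and 8.84 in wild type arrays. For both genes the 3 genotypes did not overlap and the Ccl2-/- arrays were intermediate. Cysltr1 fell by 1.57 on the log2 scale in Ccr2-/- relative to wild type, to 0.337 times (limma, adjusted p = 0.00086), and Cysltr2 rose by 1.21, to 2.32 times (adjusted p = 0.00143). Gpr17 and Oxgr1, the other measured genes of this list of 4, differed by 0.04 and 0.05 and were not called. The mean level of Oxgr1 was above only 6.83% of all genes.

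Of 6 measured genes for leukotriene synthesis beyond Alox5 and Alox5ap, 2 fell in Ccr2-/- relative to wild type and none rose. Pla2g4a, the cytosolic phospholipase that releases arachidonic acid, fell by 0.71 on the log2 scale (limma, adjusted p = 0.0274), and Cotl1, a partner of 5-lipoxygenase, fell by 0.28 (adjusted p = 0.0319). The enzymes that complete the leukotrienes were not called, with 0.08 for Lta4h, which makes leukotriene B4 (95% confidence interval -0.07 to 0.23), and 0.01 for Ltc4s, which makes leukotriene C4 (interval -0.40 to 0.42). Of 7 genes for export and breakdown, 3 fell: the exporter Abcc4 by 0.58 (adjusted p = 0.00236), Ptgr1, which inactivates leukotriene B4, by 0.70 (adjusted p = 0.0103), and Cyp4f18, which oxidizes it, by 0.34 (adjusted p = 0.0426).

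Of 7 measured genes that make or degrade PAF, 3 fell in Ccr2-/- relative to wild type and none rose. Lpcat1 and Lpcat2, which encode acetyltransferases that form PAF from lyso-PAF, fell by 0.60 (limma, adjusted p = 0.0011) and 0.51 (adjusted p = 0.0134) on the log2 scale. Pla2g7, the secreted hydrolase that inactivates PAF, was at 12.57, 12.73 and 12.78 in Ccr2-/- arrays and at 13.16, 13.12 and 13.19 in wild type arrays, and fell by 0.47 (adjusted p = 0.00326). The intracellular hydrolases Pafah2, Pafah1b1, Pafah1b2 and Pafah1b3 differed by 0.15, 0.14, 0.12 and 0.005 and were not called.

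On the side of the formyl peptide receptors, only relatives and ligands were measured. Fpr-rs3, Fpr-rs4, Fpr-rs6 and Fpr-rs7, which are mouse paralogs of Fpr1, differed by 0.12 to 0.23 on the log2 scale in Ccr2-/- relative to wild type, and none was called. Fpr-rs7, Fpr-rs4, Fpr-rs6 and Fpr-rs3 had mean levels above only 2.28%, 4.26%, 15.7% and 25.8% of all genes. At such low signal a lack of a call says little about these genes. Probes of these paralogs may also cross-hybridize, so their values are uncertain. Of 5 genes for ligands of these receptors, 2 fell. Anxa1, whose product annexin A1 acts through Fpr2, was at 11.22, 11.25 and 11.28 in Ccr2-/- arrays, 11.60, 11.50 and 11.68 in Ccl2-/- arrays and 12.20, 11.78 and 11.92 in wild type arrays. It fell by 0.72 in Ccr2-/- relative to wild type (limma, adjusted p = 0.00303), and Hebp1, the source of a peptide ligand, fell by 1.15 (adjusted p = 0.00386). Camp, Saa1 and Saa3 were not called, and the mean level of Saa1 was above only 6.16% of all genes.

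**Figure D3:**
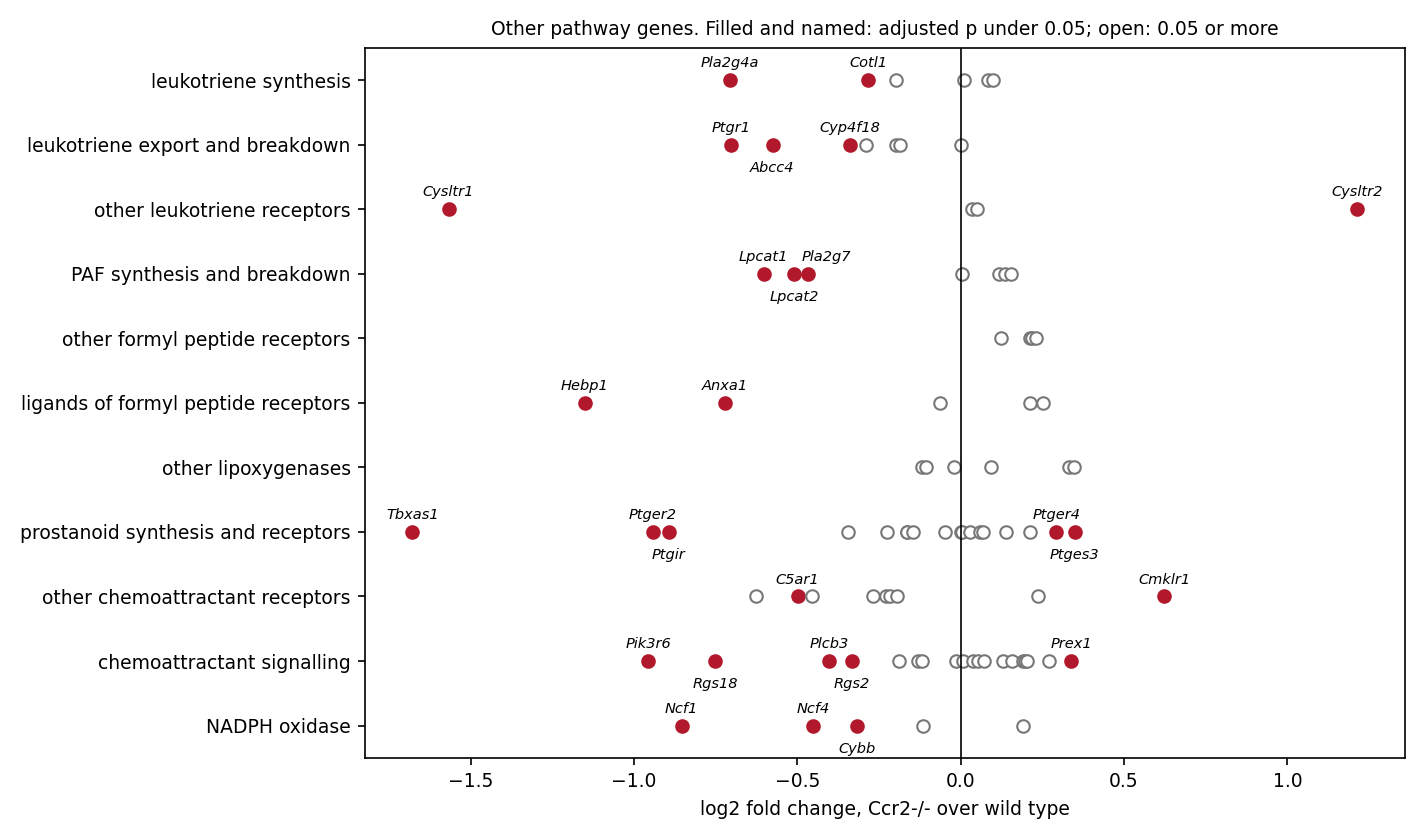
Log2 fold change in Ccr2-/- over wild type (horizontal axis) of every measured gene in the 11 pathway lists (rows); the 4 genes of the main description are not included, and a gene in 2 lists is drawn in both. Filled and named points have an adjusted p under 0.05, of which 22 genes lie left of 0 and 5 lie right of it.

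The prostanoid genes, which share arachidonic acid with the leukotrienes, held the largest fall of these lists. Tbxas1, thromboxane synthase, was at 8.55, 8.78 and 8.70 in Ccr2-/- arrays, 9.47, 9.93 and 10.00 in Ccl2-/- arrays and 10.37, 10.49 and 10.19 in wild type arrays. It fell by 1.68 on the log2 scale in Ccr2-/- relative to wild type, to 0.312 times (limma, adjusted p = 0.000579). The receptor genes Ptger2, for prostaglandin E2, and Ptgir, for prostacyclin, fell by 0.94 (adjusted p = 0.000697) and 0.89 (adjusted p = 0.0087). Ptges3, a co-chaperone with prostaglandin E synthase activity, rose by 0.35 (adjusted p = 0.0051) and the receptor gene Ptger4 by 0.29 (adjusted p = 0.0288). The remaining 13 of the 18 measured prostanoid genes were not called, among them Ptgs2, the inducible cyclooxygenase, at -0.16 (adjusted p = 0.153). The mean level of Ptgs2 was above only 11.0% of all genes. None of the 6 other lipoxygenases was called in Ccr2-/- relative to wild type, and Alox8 rose by 0.55 in Ccr2-/- relative to Ccl2-/- (adjusted p = 0.0263).

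Of 9 other chemoattractant receptors, 1 rose and 1 fell in Ccr2-/- relative to wild type, beside 13.3% of all genes called in either direction. Cmklr1, the chemerin receptor, rose by 0.62 on the log2 scale (limma, adjusted p = 0.00108), and C5ar1, a receptor of complement C5a, fell by 0.50 (adjusted p = 0.0201). Downstream of these receptors, 1 of 19 signalling genes rose and 4 fell, beside the same 13.3% of all genes. Pik3r6, a regulatory subunit of phosphoinositide 3-kinase gamma, was at 10.28, 10.35 and 10.33 in Ccr2-/- arrays, 11.07, 10.88 and 11.12 in Ccl2-/- arrays and 11.35, 11.22 and 11.25 in wild type arrays, and it fell by 0.96 (adjusted p = 0.00053). The alternative subunit Pik3r5 and the catalytic subunit Pik3cg differed by 0.20 and -0.01 and were not called. Plcb3, Rgs2 and Rgs18 fell and Prex1 rose, by 0.34 (adjusted p = 0.0125). Of 5 genes of the NADPH oxidase, which phagocytes assemble after such signals, 3 fell: Ncf1 by 0.85 (adjusted p = 0.000949), Ncf4 by 0.45 (adjusted p = 0.00734) and Cybb by 0.32 (adjusted p = 0.0101).

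Of the 27 called pathway genes, 13 lost their call in at least 1 alternative. Ptges3, Plcb3, Rgs2 and Cybb lost it only when arrays were centred on their medians, with adjusted p of 0.0641, 0.114, 0.117 and 0.120. Ptgr1 lost it without Ccr2-/- replicate 1 (adjusted p = 0.0505), and Prex1 without Ccr2-/- replicate 1 or wild type replicate 1 (adjusted p up to 0.0554). Lpcat2 lost it with centring and without Ccr2-/- replicate 1 or wild type replicate 3 (adjusted p up to 0.0907), Rgs18 with centring and without replicate 1 or 3 of Ccr2-/- or of wild type (up to 0.0647), and C5ar1 with centring and without Ccr2-/- replicate 1 or 2 or any wild type array (up to 0.0780). The calls of Pla2g4a, Cotl1, Ptger4 and Cyp4f18 were the least stable, lost in 7, 9, 9 and 10 of the 17 alternatives, with adjusted p from 0.0533 to 0.226 where they were lost. All 4 were lost without any 1 of the wild type arrays and without Ccr2-/- replicate 1 or 2.

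Markers of cell types moved with the same comparison, in which 13.3% of all genes were called and 8.38% were called lower. All 7 measured markers (of 10 listed) of Ly-6Chi monocytes, the inflammatory subset of blood monocytes, fell in Ccr2-/- relative to wild type, with a median of -1.42 on the log2 scale, against -0.67 and none called in Ccl2-/- relative to wild type. Their summed intensity was 14472 to 15982 in Ccr2-/- arrays, 23078 to 26577 in Ccl2-/- arrays and 31534 to 40689 in wild type arrays. Of 13 markers of Ly-6Clo monocytes, the patrolling subset, Spn and Cd9 rose and Cebpb fell. Of 9 markers shared by monocytes and macrophages, 7 fell, with a median of -0.44 and a summed intensity of 51786 to 55978 in Ccr2-/-, 62686 to 68633 in Ccl2-/- and 67350 to 70390 in wild type. Some of these marker calls were not stable. Chil3 and Vcan of the Ly-6Chi list each lost theirs in 8 of 17 alternatives, among them the removal of any Ccr2-/- array (adjusted p up to 0.125 and 0.163), which leaves 5 of the 7 called in all of them. Spn lost it with centring and without any 1 of the Ccr2-/- arrays (up to 0.0842), and Cebpb with centring and without Ccr2-/- replicate 1 or 2 or any wild type array (up to 0.125), so that Cd9 alone of the Ly-6Clo list was called in all 17. Of the monocyte and macrophage list, Csf1r lost its call with centring (0.110) and Cd68 with centring and without replicate 1 or 2 of Ccr2-/- or 1 or 3 of wild type (up to 0.15). The study also reported lower Csf1r in Ccr2-/- monocytes by PCR. In Ccr2-/- relative to Ccl2-/-, 5 of the 7 Ly-6Chi markers were called lower and none higher, with a median of -0.75. Of the 9 shared markers, 5 were called lower and none higher, with a median of -0.34, beside 2.87% of all genes called lower. Each of these calls was lost without Ccr2-/- replicate 1 and also without Ccr2-/- replicate 2. By flow cytometry of blood, the study reported an equal proportion of monocytes in every genotype. It also reported fewer Ly-6Chi monocytes with either disruption, and a similar effect of both on the abundance of the subsets. The RNA values of the marker lists are a different measure from these cell counts. The part of the marker shifts in the fall of Ltb4r1, Ptafr and Alox5ap was not tested.

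All 13 NK cell markers rose in Ccr2-/- relative to wild type, beside 13.3% of all genes called in either direction and 8.38% called lower. The NK cell markers had a median of 0.78 and summed to 105207 to 108496 in Ccr2-/- arrays, 78933 to 94494 in Ccl2-/- arrays and 63007 to 68492 in wild type arrays. Gzma, the least stable of them, lost its call in 6 of 17 alternatives, among them the removal of any Ccr2-/- array or of wild type replicate 1 or 3 (adjusted p up to 0.0827), and the other 12 kept theirs in all 17. NK cell markers were also strong in wild type. The highest in mean level, Nkg7, was at 13.25, 13.39 and 13.39 in wild type arrays. None of the 13 had a mean level below the median of all genes. The study defined monocytes as lacking the NK cell marker NK1.1, but no antibody to it is among those listed for the columns. Neutrophils also use these receptors and enzymes, and the depletion of Ly-6G was directed at them. Of 15 measured neutrophil markers, 1 fell, the growth factor receptor Csf3r by 0.94 (limma, adjusted p = 0.000653), and none rose, while the summed intensity was 7393 to 7924 in Ccr2-/-, 7976 to 9379 in Ccl2-/- and 8740 to 11306 in wild type. The other 14 were not called, with 6 above 0 and 8 below, from -0.77 for Lcn2 to 0.62 for Ngp, and the median of the list was -0.04. Of the 15 neutrophil markers, 11 had a mean level below the median of all genes. Without Csf3r the sum overlapped between genotypes, at 4859 to 5458 in Ccr2-/-, 3920 to 5746 in Ccl2-/- and 4175 to 6108 in wild type. Of 8 basophil and mast cell markers none was called in any comparison. Their summed intensity ranged more widely within genotypes, 3952 to 7097 in Ccr2-/-, 2617 to 3866 in Ccl2-/- and 4319 to 8065 in wild type. Every Ccl2-/- array was thus below every array of the other genotypes in this sum. The median difference of the list was -0.75 in Ccl2-/- and -0.11 in Ccr2-/-, each relative to wild type. The part of NK cells, neutrophils and basophils in the differences described above was not tested.

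**Figure D4:**
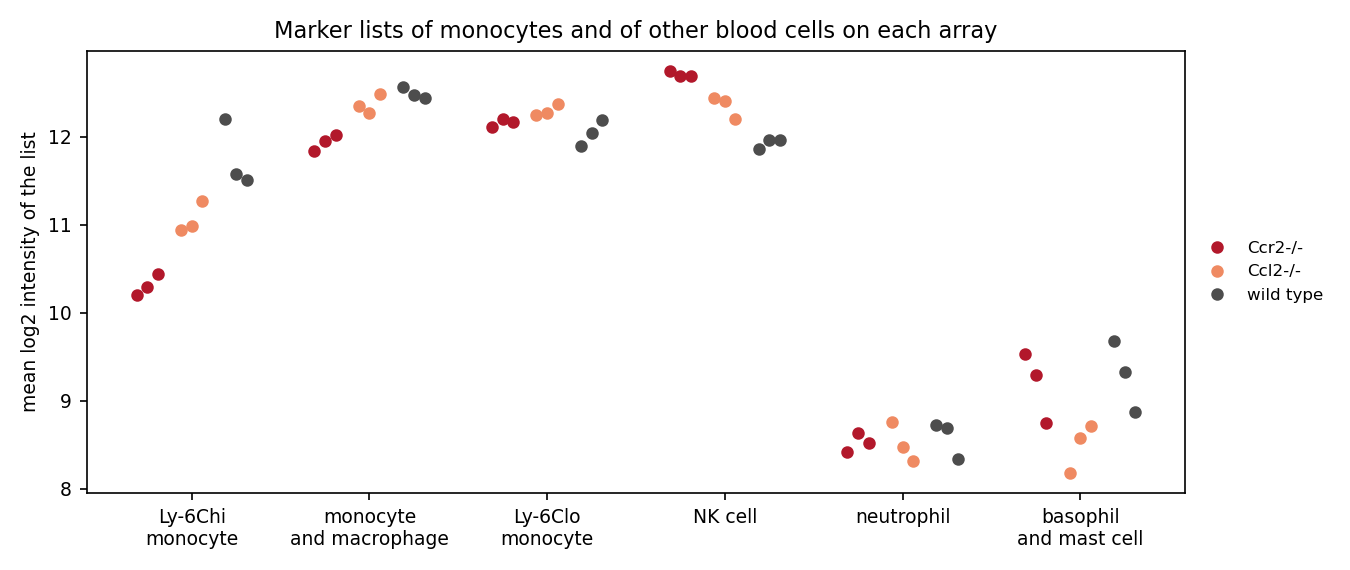
Mean log2 intensity (vertical axis) of 6 marker lists on each array, with points for the 3 arrays of Ccr2-/-, Ccl2-/- and wild type from left to right within each list. The Ly-6Chi list lies lower and the NK cell list higher in Ccr2-/- arrays, without overlap with wild type. The neutrophil and the basophil and mast cell lists overlap between Ccr2-/- and wild type. In the basophil and mast cell list the Ccl2-/- arrays lie below those of both other genotypes.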

How the data were processed

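RNA of blood monocytes was measured on 9 Affymetrix Mouse Gene 1.0 ST arrays, 3 per genotype, each from 5 pooled mice. The deposited values are linear intensities, 1 per transcript cluster and array for 35512 clusters, which the authors computed with dChip; its version, normalization and expression model, and the genome build, are not given in the sources used here, and a shift of a whole array could move every gene of it. Arrays have no read depth, and their number limits the precision. Every p measures the spread between pooled arrays, not between mice.

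Gene names came from the platform annotation, updated through gene identifiers with RefSeq: 21789 clusters had 1 symbol, 1621 had several and 12102 had none, and only the first kind was used. Where a gene had several clusters (999 genes), the one highest in mean log2 value stood for it, leaving 19938 genes. Values below 1 (19 values) were set to 1 before log2. With limma 3.58.1 (R 4.3.3) and empirical Bayes variances, genotype was modelled over the 9 arrays together, p-values were adjusted over all genes in each of 3 comparisons (Benjamini-Hochberg), and a call needed an adjusted p under 0.05. The fit was tested on simulated data with independent noise for each gene and no shift of whole arrays, so such shifts were not covered. The study's methods name no test across arrays, only a ratio over 1.2 and a difference over 100, applied here to arithmetic means.

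The genes, the pathway and marker lists and the tests were chosen with earlier results of these data known, so no list was tested as a set. Named were the 6 genes, any gene of the pathway lists, for each measured gene the 5 genes with the highest Pearson correlation over the arrays (mean log2 of at least 7), and of the marker lists mainly those called; the marker genes named were chosen after their values were seen. The 17 alternatives were quantile normalization, centring on array medians, a filter on a mean intensity over 100, an intensity trend, 50 added before log2, averaging a gene's clusters, the replicate number as a block, fits of the 6 arrays compared and each array left out in turn.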

Additional observations from a re-analysis of the deposited data

How the results depend on the processing

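The calls of Ltb4r1, Ptafr and Alox5ap in Ccr2-/- relative to wild type held in every alternative, and the count of 3 became 4, with Alox5, without Ccl2-/- replicate 1 and in the fit of 6 arrays. The number of these genes past the size limits was 2 to 3 in Ccl2-/- and 4 in Ccr2-/- when single arrays were left out. In Ccr2-/- relative to Ccl2-/- the count of 3 was 1 with the replicate block, 0 in the fit of 6 arrays and 0 to 2 without single arrays. The sign of Alox5 in that comparison turned to -0.04 without Ccr2-/- replicate 2 and to -0.10 without Ccl2-/- replicate 1, within a range of -0.10 to 0.14 over the removal of single arrays.

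Over all genes, 32 were called in Ccl2-/- relative to wild type, against 62 with quantile normalization, 366 with an intensity trend, 105 with the offset, 2 in the fit of 6 arrays and 6 to 476 without single arrays, the highest without Ccl2-/- replicate 3. In Ccr2-/- relative to wild type 2648 genes became 1647 with centring and 1663 to 3479 without single arrays. In Ccr2-/- relative to Ccl2-/- 718 genes became 261 with centring, 1344 with the trend, 17 in the fit of 6 arrays and 22 to 1189 without single arrays. Of the pathway genes, 0 in Ccl2-/- relative to wild type became 5 with the trend, 2 with the offset and 0 to 4 without single arrays. The 27 in Ccr2-/- relative to wild type became 16 with centring, and the 7 in Ccr2-/- relative to Ccl2-/- became 4 with centring, 18 with the trend, 0 in the fit of 6 arrays and 0 to 14 without single arrays. The cause was not tested.

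The replicate numbers did not pair the arrays: deviations of same-numbered arrays correlated at -0.18 to 0.56, over 0.1 in 4 of 9 pairs, and 3 of 9 arrays correlated best with their own number. With the replicate number as a block, 7 genes were called in Ccl2-/- relative to wild type and 167 in Ccr2-/- relative to Ccl2-/-, of which 3 were pathway genes, and Ltb4r1 had an adjusted p of 0.0516 in the direct comparison of the knockouts.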
